A study of Mus musculus with 6 samples.

Results

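The transcripts examined are those of mitosis and chromosome segregation in mouse CD4 T cells, a list of 53 genes that spans the G2 and M phase cyclins, mitotic kinases, the spindle checkpoint, the kinetochore, kinesins, condensin, cytokinesis and the transcription factors Foxm1 and Mybl2. A gene was found by its symbol in the platform annotation and read from its brightest probe set (by mean log2 signal, all 6 arrays). Of the 53 genes 52 were measured, among 18193 genes with a probe set of their own, and Ccnb1, the gene of cyclin B1, was not analysed here. Several probe sets were present for 35 of the 52, which had 120 probe sets in all.

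In a dividing cell these genes are transcribed late in the cycle, so that their mRNA is abundant in G2 and mitosis and low in resting cells. Cyclin-bound CDK1 starts mitosis, Aurora and Polo-like kinases build the spindle, the checkpoint holds anaphase until the kinetochores are attached, and the anaphase-promoting complex (APC/C) then releases the sister chromatids before the cell is cleaved. Naive CD4 T cells rest until their antigen receptor and CD28 are engaged and then divide repeatedly, while memory and regulatory T cells include some cells that divide in the animal.

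The series asks what loss of Furin, a proprotein convertase of the secretory pathway, does to T cells. All mice were C57BL/6, were 10 to 11 weeks old and carried Fur flox/flox alleles. Furin cKO cells also carried CD4 cre, a Cre transgene under control of the Cd4 gene that acts from the thymus on; control cells had the floxed alleles without Cre and are labelled WT. Naive cells (CD4+CD62L+CD44-) were cultured for 2 days on plate-bound antibodies to CD3 and CD28, each at 5 µg/ml, and are called activated cells here. Memory cells (CD4+CD62L-CD44+) and regulatory cells (CD4+CD25+FoxP3+) were sorted and used fresh. The 6 groups were activated Furin cKO, activated control, memory Furin cKO, memory control, regulatory Furin cKO and regulatory control, with 1 Affymetrix array each, and the labels do not state whether animals were pooled. No value within a group has a replicate, so differences between the arrays of a population have no p-value.

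Signals are linear intensities that had been scaled to a trimmed mean of 500 on every array before deposit. Between 49.44% and 49.82% of all probe sets reached the floor, a signal of 47.6, on the activated arrays, against 62.55% to 67.41% on the fresh arrays. The actin 3' to 5' ratio, which rises with degraded RNA, ranged from 1.216 to 1.925, and the bioB_M spike-in read 879.1 to 964.4 on the activated arrays and 2926.1 to 6397.6 on the fresh ones. The targeted gene did not follow the labels everywhere: the Furin probe set read 468.3 (cKO-labelled) and 515.8 (control) in activated cells, 2202.9 (cKO-labelled) and 647.4 (control) in memory cells, and 410.0 (cKO-labelled) and 547.2 (control) in regulatory cells. Where this probe set lies relative to the floxed segment is not known here, so arrays are called cKO-labelled throughout and every direction in memory cells rests on a label that Furin goes against. Foxp3, the defining transcript of regulatory T cells, read 33.8 (cKO-labelled) and 50.4 (control) on the arrays labelled regulatory, but 1116.4 (cKO-labelled) and 1358.2 (control) on the memory arrays. Other genes of that type did stand high under the regulatory label, where Il2ra, the CD25 gene used for sorting, read 3702.1 (cKO-labelled) and 4276.9 (control), against 626.8 (cKO-labelled) and 1190.3 (control) in memory cells. The population names below are therefore those of the labels.

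Many late cell cycle promoters carry a short element called CHR near their start, usually below CCAAT boxes bound by NF-Y, and the printed stretches show what that looks like in genes whose signals were high or low together and in those that lack it. Promoters of 45 members were matched by symbol in RefSeq (GRCm38.p6), 51 in all, each from 250 bases before to 50 bases after the annotated start, with the start counted as position 1. The CHR was searched as TTTGAA or TTCGAA and the CCAAT box as CCAAT, on both strands, and matches of the different motifs overlapped in 0 member promoters. Each line runs from 120 bases before the start through the first 30 transcribed bases, capitals mark CHR and CCAAT letters (ATTGG where the CCAAT box is on the other strand), and all lie on the minus strand. Cdk1 (chr10:69352883-69353032), Cdc20 (chr4:118437314-118437463), Hmmr (chr11:40733408-40733557), Bub1 (chr2:127831830-127831979) and Ccnb2 (chr9:70421525-70421674) have both motifs in this stretch. Nuf2 (chr1:169531435-169531584), with the second-highest fold of all members in memory cells, has neither. Pttg1 (chr11:43425952-43426101), with hardly any fold there on its brightest probe set, has neither as well.
Cdk1: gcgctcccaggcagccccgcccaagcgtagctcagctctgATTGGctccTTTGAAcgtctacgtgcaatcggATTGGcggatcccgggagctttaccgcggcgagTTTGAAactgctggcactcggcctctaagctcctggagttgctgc
Cdc20: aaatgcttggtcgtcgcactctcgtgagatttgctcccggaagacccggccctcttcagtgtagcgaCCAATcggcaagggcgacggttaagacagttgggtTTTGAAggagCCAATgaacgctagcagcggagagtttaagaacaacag
Hmmr: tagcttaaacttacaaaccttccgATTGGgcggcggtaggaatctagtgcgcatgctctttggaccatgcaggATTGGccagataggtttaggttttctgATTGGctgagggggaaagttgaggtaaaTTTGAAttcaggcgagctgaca
Bub1: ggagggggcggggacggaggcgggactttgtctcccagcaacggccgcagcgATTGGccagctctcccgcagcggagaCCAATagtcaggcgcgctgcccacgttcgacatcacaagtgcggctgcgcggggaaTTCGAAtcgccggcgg
Ccnb2: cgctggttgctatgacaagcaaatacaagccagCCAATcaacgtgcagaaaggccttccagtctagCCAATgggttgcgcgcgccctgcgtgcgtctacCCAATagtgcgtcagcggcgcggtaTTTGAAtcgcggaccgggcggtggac
Nuf2: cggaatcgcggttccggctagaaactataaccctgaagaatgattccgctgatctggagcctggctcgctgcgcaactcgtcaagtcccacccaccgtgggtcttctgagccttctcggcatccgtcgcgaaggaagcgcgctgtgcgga
Pttg1: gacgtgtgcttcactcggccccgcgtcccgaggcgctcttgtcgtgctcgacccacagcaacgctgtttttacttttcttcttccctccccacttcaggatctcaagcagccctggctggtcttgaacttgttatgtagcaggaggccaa

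A CHR word whose first base lay within 50 bases of the start was present in 30 of the 51 member promoters (58.8%), in 29 of 68 promoters of other mitosis genes (42.6%), in 3 of 42 promoters of DNA replication genes (7.14%) and in 1743 of all 32851 promoters (5.31%). In the whole window of 300 bases, 64.7% of member promoters and 19.2% of all promoters held the word, and 76.5% of member promoters and 37.4% of all promoters held a CCAAT box. Words of E2F sites (TTTCCCGC, TTTGGCGC or TTTCGCGC, on both strands) went the other way between the lists, with 3.92% of member promoters, 38.1% of DNA replication promoters and 1.84% of all promoters. In the printed stretches the first base of the CHR lies at -71 and -15 in Cdk1, at -18 in Cdc20, at 9 in Hmmr, at 15 in Bub1 and at 5 in Ccnb2. The plot of CHR position along the promoter shows that the members' words gather at the start: 21.6% of their promoters have one beginning in the last 50 bases before it and 37.3% in the first 50 after it, against 2.97% and 2.46% of all promoters. A match of letters is no evidence that a factor binds there.

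**Figure D1:**
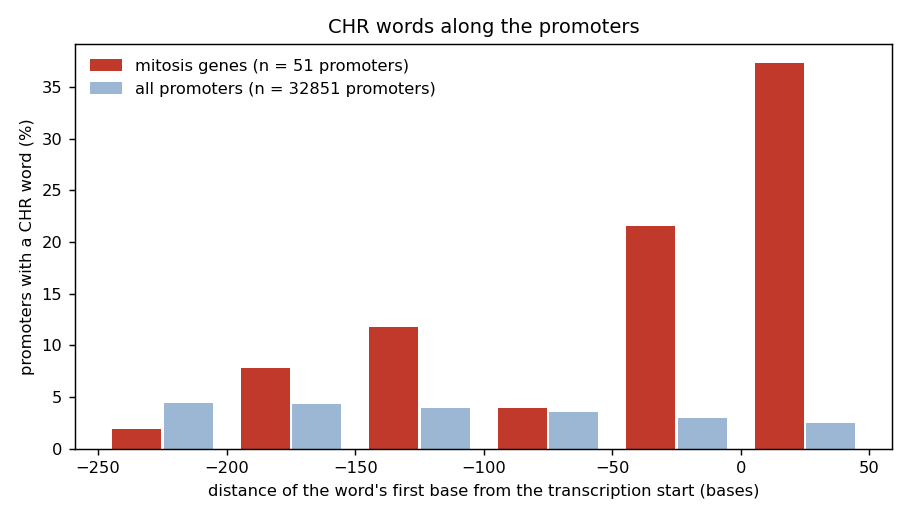
Share of promoters (%, vertical axis) with a CHR word (TTTGAA or TTCGAA, either strand) whose first base falls in each bin of 50 bases from the transcription start (horizontal axis), for the 51 promoters of mitosis genes (red) and all 32851 promoters (light blue). The red bars reach 21.6% just before the start and 37.3% just after it, where the light blue bars stand at 2.97% and 2.46%.

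The mitosis genes had similar signals on both activated arrays, and in fresh cells they were higher on the cKO-labelled array, in memory cells above all. Their median signal was 2553.2 on the cKO-labelled and 2675.5 on the control activated array, 603.6 on the cKO-labelled and 195.0 on the control memory array, and 344.2 on the cKO-labelled and 207.2 on the control regulatory array. A gene is called here if the arrays of its population differ at least 2-fold, and it enters only if its signal reached the floor on at least 1 of these arrays. In activated cells 28 of 52 were higher and 24 lower, and 0 were called either way, where 0.362% of all genes were called higher (39 of 10775) and 0.353% lower. In memory cells 51 of 52 were higher, with a median log2 fold of 1.77, which is 3.42-fold, and 43 were called, against 5.51% of all genes (783 of 14200), while 0 were called lower, against 3.56%. In regulatory cells 45 of 51 were higher, with a median log2 fold of 0.69, which is 1.62-fold, and 19 were called, against 3.05% of all genes (443 of 14530), and again 0 were called lower, against 2.06%. The median of all genes lay between -0.02 and 0.00 (log2) in each population. In such bulk samples fewer dividing cells and less mitotic RNA per cell cannot be told apart.

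Entry by the floor touched few members. Cdc25c in memory cells and Stil in regulatory cells stayed under the floor on the control array; Cdc25c was below it on both regulatory arrays and was not counted there. With only the members above the floor on both arrays, 42 of 51 were called in memory cells and 18 of 50 in regulatory cells. The scaled median absolute deviation of all log2 folds, a measure of how far the arrays of a population differ in general, was 0.21 in activated cells, 0.47 in memory cells and 0.33 in regulatory cells.

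**Figure D2:**
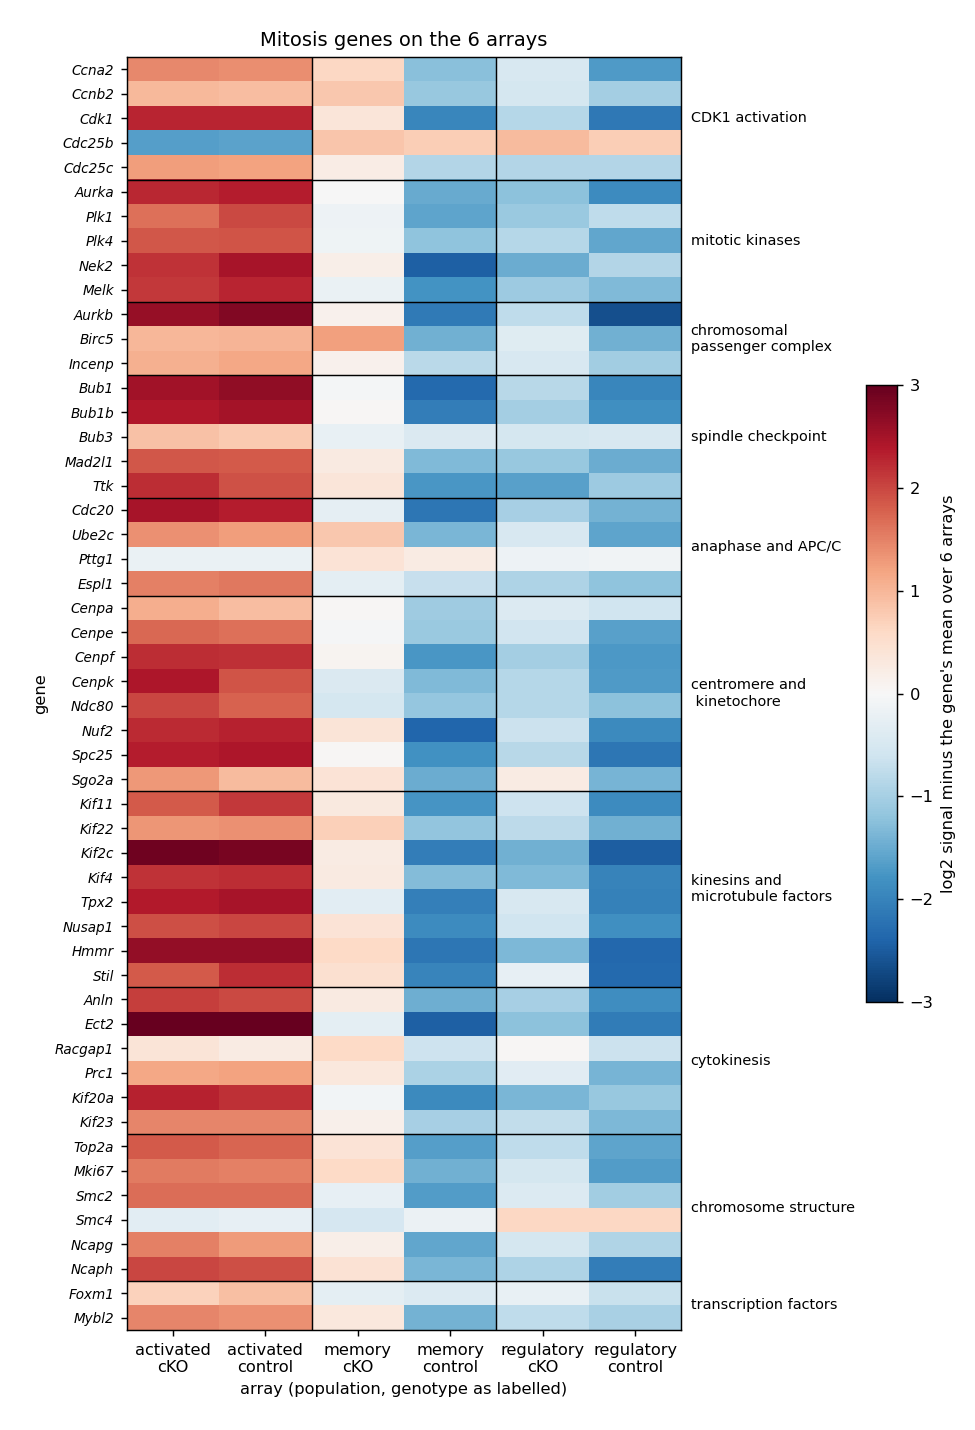
Log2 signal of each of the 52 measured mitosis genes minus its own mean over the 6 arrays (colour), with genes grouped by role down the page and arrays across, cKO-labelled left of control in each population. Both activated columns are dark red for most genes and alike, the memory cKO-labelled column is pale, and both fresh control columns are blue for most genes.

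CDK1 and its regulators come first. Cdk1, the kinase that drives entry into mitosis, read cKO-labelled 6325.7 against control 6310.7 in activated cells, cKO-labelled 1652.8 against control 330.4 in memory cells, and cKO-labelled 716.9 against control 292.9 in regulatory cells. The activated arrays were 0.0034 apart on the log2 scale, whereas Cdk1 was 5.00-fold higher on the cKO-labelled array in memory cells and 2.45-fold higher in regulatory cells. Cdc25b, a phosphatase that removes the inhibitory phosphates from CDK1, read cKO-labelled 389.3 against control 401.6 in activated cells, cKO-labelled 2182.7 against control 2023.7 in memory cells, and cKO-labelled 2365.6 against control 2019.4 in regulatory cells. Unlike most members it was low in activated cells and high on every fresh array, and its fold between genotypes stayed at 1.08 in memory cells and 1.17 in regulatory cells. Ccna2 and Ccnb2, which encode cyclin A2 and cyclin B2, were 3.66-fold and 3.83-fold higher on the cKO-labelled array in memory cells, and Ccna2 was 2.33-fold and Ccnb2 1.41-fold higher in regulatory cells. Cdc25c, a second CDK1 phosphatase, read 102.4 on the cKO-labelled and 41.2 on the control memory array, at least 2.15-fold higher, and was below the floor on the other 3 fresh arrays. Of the 5 measured genes of the group, 4 were called in memory cells and 2 of 4 in regulatory cells.

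The 5 genes grouped here as mitotic kinases were called in memory cells and not in regulatory cells, a difference that was not tested. Cytokinesis genes were much alike in this, with 6 of 6 called in memory cells and 1 of 6 in regulatory cells. Among kinases placed in other roles, Cdk1, Aurkb and Bub1 were called in both populations, and Ttk in memory cells only. Nek2, a kinase that separates the centrosomes, read cKO-labelled 1584.4 against control 1957.4 in activated cells, cKO-labelled 394.6 against control 64.7 in memory cells, and cKO-labelled 125.8 against control 190.5 in regulatory cells. It was 6.10-fold higher on the cKO-labelled array in memory cells, but in regulatory cells the cKO-labelled signal was the lower, by 1.51-fold, and a further probe set of Nek2 was higher there, at 105.6 on the cKO-labelled and 57.0 on the control array. Plk4, which starts centriole duplication, read cKO-labelled 4731.1 against control 4865.5 in activated cells, cKO-labelled 1198.2 against control 563.5 in memory cells, and cKO-labelled 726.9 against control 445.7 in regulatory cells. Its folds were 2.13 in memory cells and 1.63 in regulatory cells. All 5 kinases (Aurka, Plk1, Plk4, Nek2 and Melk) were called in memory cells and 0 of 5 in regulatory cells, where Plk1 was 1.26-fold lower and Nek2 lower as well. Aurka, the kinase of the spindle poles, was 2.82-fold higher in memory cells and 1.60-fold higher in regulatory cells. Melk was 3.02-fold higher in memory cells. In activated cells all 5 were lower on the cKO-labelled array by the probe sets read here, with log2 folds from -0.32 (Plk1) to -0.04 (Plk4) and a median of -0.16. The other probe sets of Plk4 were higher there, with log2 folds of 0.14 and 0.22.

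The chromosomal passenger complex corrects wrong attachments of chromosomes to the spindle, with Aurora B as its kinase. Aurkb, the gene of that kinase, read cKO-labelled 2850.2 against control 3158.8 in activated cells, cKO-labelled 507.6 against control 107.1 in memory cells, and cKO-labelled 273.7 against control 74.3 in regulatory cells. Birc5, the gene of the subunit survivin, read cKO-labelled 2557.5 against control 2606.1 in activated cells, cKO-labelled 2981.0 against control 472.8 in memory cells, and cKO-labelled 1002.2 against control 467.9 in regulatory cells. Incenp, the gene of the scaffold, read cKO-labelled 9616.6 against control 10193.2 in activated cells, cKO-labelled 5021.8 against control 2614.4 in memory cells, and cKO-labelled 3272.1 against control 2222.7 in regulatory cells. In memory cells Aurkb was 4.74-fold and Birc5 6.30-fold higher on the cKO-labelled array, and the Birc5 signal there was above both activated arrays. In regulatory cells Aurkb was 3.68-fold higher, the largest fold of any member with both arrays above the floor, and Birc5 was 2.14-fold higher. The other probe set of Aurkb read 182.6 on the cKO-labelled and 87.7 on the control regulatory array, a log2 fold of 1.06. With the floor at the 60th percentile the log2 fold of Aurkb there was 0.92, against 1.88. Incenp missed the threshold, at 1.92-fold in memory cells and 1.47-fold in regulatory cells.

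Genes of the spindle checkpoint split into 4 that were called in memory cells and Bub3. Bub1, a checkpoint kinase at the kinetochore, read cKO-labelled 2742.8 against control 3033.6 in activated cells, cKO-labelled 460.2 against control 95.3 in memory cells, and cKO-labelled 267.1 against control 123.9 in regulatory cells. Ttk, the kinase that starts the checkpoint signal, read cKO-labelled 1246.9 against control 1008.2 in activated cells, cKO-labelled 347.1 against control 80.5 in memory cells, and cKO-labelled 87.0 against control 126.7 in regulatory cells. Bub3, which brings BUB1 and BUBR1 to the kinetochore and is also made outside mitosis, read cKO-labelled 11852.4 against control 11107.7 in activated cells, cKO-labelled 5554.6 against control 4754.4 in memory cells, and cKO-labelled 4461.7 against control 4575.9 in regulatory cells. Bub1 was 4.83-fold higher on the cKO-labelled array in memory cells and 2.16-fold higher in regulatory cells. Ttk was 4.31-fold higher in memory cells but 1.46-fold lower in regulatory cells. Its other probe set was higher there, at 147.1 on the cKO-labelled and 24.6, below the floor, on the control array. Bub3 differed by at most 1.17-fold in any population, and other probe sets of Bub3 went the opposite way in memory cells. Bub1b (BUBR1) was 4.31-fold and Mad2l1 (MAD2) 3.01-fold higher in memory cells, with 1.78-fold and 1.28-fold in regulatory cells.

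At the step into anaphase, Ube2c and Cdc20, which act in the APC/C, were called in memory cells, and the genes of securin and separase were not. Ube2c, the ubiquitin-conjugating enzyme of the APC/C, read cKO-labelled 4023.6 against control 3710.4 in activated cells, cKO-labelled 2762.8 against control 607.5 in memory cells, and cKO-labelled 1130.5 against control 524.3 in regulatory cells. Pttg1, the gene of securin, which the APC/C destroys, read cKO-labelled 8828.4 against control 8803.8 in activated cells, cKO-labelled 13528.5 against control 12127.4 in memory cells, and cKO-labelled 9193.1 against control 9482.0 in regulatory cells. Ube2c was 4.55-fold higher on the cKO-labelled array in memory cells and 2.16-fold higher in regulatory cells. On the probe set read here, Pttg1 was nearly level within each population and differed by 1.12-fold in memory cells. Of its other probe sets, 1 read 216.8 on the cKO-labelled and 465.7 on the control memory array. That is a log2 fold of -1.10, and the remaining probe set had 0.17. Cdc20, the activator of the APC/C, was 3.73-fold higher in memory cells and 1.35-fold higher in regulatory cells. Espl1, the gene of separase, read 239.1 on the cKO-labelled and 181.1 on the control memory array, a fold of 1.32.

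Centromere and kinetochore genes were higher on the cKO-labelled array in both fresh populations, for 8 of 8 genes in each. Nuf2, a subunit of the NDC80 complex that grips microtubules, read cKO-labelled 2549.0 against control 2669.7 in activated cells, cKO-labelled 706.1 against control 104.7 in memory cells, and cKO-labelled 344.8 against control 144.3 in regulatory cells. Ndc80, its partner subunit, read cKO-labelled 1564.9 against control 1332.2 in activated cells, cKO-labelled 272.5 against control 176.5 in memory cells, and cKO-labelled 216.6 against control 167.5 in regulatory cells. The subunits of that complex differed in size: Nuf2 was 6.74-fold and Spc25 3.57-fold higher on the cKO-labelled array in memory cells, whereas Ndc80 was 1.54-fold higher. Sgo2a, a shugoshin that protects cohesin at the centromere, read cKO-labelled 575.7 against control 449.5 in activated cells, cKO-labelled 308.4 against control 83.2 in memory cells, and cKO-labelled 277.6 against control 88.3 in regulatory cells. Cenpa, the histone H3 variant of centromeres, read cKO-labelled 5318.1 against control 4702.1 in activated cells, cKO-labelled 2564.2 against control 1197.4 in memory cells, and cKO-labelled 1891.4 against control 1658.3 in regulatory cells. Sgo2a was 3.71-fold higher in memory cells and 3.14-fold higher in regulatory cells, and Cenpa was 2.14-fold higher in memory cells and 1.14-fold in regulatory cells. Cenpe and Cenpf, both of the outer kinetochore, were 2.12-fold and 3.50-fold higher in memory cells and 2.07-fold and 1.62-fold higher in regulatory cells. Cenpk, of the inner centromere network, had the largest fold of any member in activated cells, 1.47, with 3696.3 on the cKO-labelled and 2517.4 on the control array. Its other probe sets were lower on the cKO-labelled array there, at 263.9 against 315.5 and at 277.5 against 330.0. Cenpk was 1.83-fold higher in memory cells and 1.82-fold higher in regulatory cells. Called were 6 of 8 in memory cells and 4 of 8 in regulatory cells.

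Spindle kinesins and microtubule factors were the group with the most called genes, 8 of 8 in memory cells and 6 of 8 in regulatory cells. Hmmr, a spindle-assembly factor of the centrosome, read cKO-labelled 3573.7 against control 3598.2 in activated cells, cKO-labelled 874.7 against control 127.3 in memory cells, and cKO-labelled 227.7 against control 112.8 in regulatory cells. Stil, needed for centriole duplication, read cKO-labelled 861.8 against control 1121.7 in activated cells, cKO-labelled 336.3 against control 61.0 in memory cells, and cKO-labelled 204.0 against control 42.9 in regulatory cells. Kif4, a motor bound to chromosomes, read cKO-labelled 999.1 against control 1043.3 in activated cells, cKO-labelled 267.8 against control 91.1 in memory cells, and cKO-labelled 88.9 against control 55.8 in regulatory cells. Hmmr had the largest fold of all members in memory cells, 6.87, and 2.02 in regulatory cells. Stil was 5.51-fold higher in memory cells and, with its control array below the floor, at least 4.29-fold higher in regulatory cells. Kif22, another chromosome-bound motor, read cKO-labelled 4824.1 against control 4952.1 in activated cells, cKO-labelled 3129.3 against control 852.5 in memory cells, and cKO-labelled 1110.8 against control 710.7 in regulatory cells. Kif22 was 3.67-fold and Kif4 2.94-fold higher in memory cells, and both stayed under 2-fold in regulatory cells. The remaining genes were Kif11, the motor that pushes spindle poles apart, Kif2c, which shortens microtubules, Tpx2, an activator of Aurora A, and Nusap1, which bundles microtubules. Their folds ran from 3.30 (Tpx2) to 5.03 (Kif2c) in memory cells and from 2.03 (Kif2c) to 2.89 (Tpx2) in regulatory cells.

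Cytokinesis genes were called for 6 of 6 members in memory cells and 1 of 6 in regulatory cells. Ect2, which activates RhoA at the cleavage furrow, read cKO-labelled 4183.1 against control 4158.2 in activated cells, cKO-labelled 413.2 against control 93.1 in memory cells, and cKO-labelled 218.0 against control 118.9 in regulatory cells. Kif23, a motor of the central spindle, read cKO-labelled 1311.3 against control 1302.8 in activated cells, cKO-labelled 531.9 against control 239.2 in memory cells, and cKO-labelled 282.9 against control 186.2 in regulatory cells. Ect2 had the steepest drop of the group between activated and fresh cells, and its fold between genotypes was 4.44 in memory cells and 1.83 in regulatory cells; for Kif23 these were 2.22 and 1.52. Prc1, which bundles the microtubules of the midzone, read cKO-labelled 1649.9 against control 1697.8 in activated cells, cKO-labelled 928.5 against control 383.5 in memory cells, and cKO-labelled 588.5 against control 282.9 in regulatory cells. Kif20a, a motor of the spindle midzone, read cKO-labelled 2248.7 against control 2058.0 in activated cells, cKO-labelled 428.5 against control 119.9 in memory cells, and cKO-labelled 173.8 against control 205.6 in regulatory cells. Prc1 was the gene called in regulatory cells, at 2.08-fold. Kif20a was 3.57-fold higher on the cKO-labelled array in memory cells and 1.18-fold lower in regulatory cells. Racgap1, the partner of KIF23, was 2.35-fold higher in memory cells and 1.61-fold higher in regulatory cells, and Anln, the gene of anillin, 3.29-fold and 1.82-fold higher.

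Genes of chromosome structure included the most widely used marker of dividing cells. Mki67, the Ki-67 gene, whose protein coats mitotic chromosomes, read cKO-labelled 10102.5 against control 9774.4 in activated cells, cKO-labelled 5261.4 against control 1259.9 in memory cells, and cKO-labelled 2395.5 against control 1074.5 in regulatory cells. Top2a, the topoisomerase that untangles sister chromatids, read cKO-labelled 10017.6 against control 9409.1 in activated cells, cKO-labelled 3734.3 against control 896.9 in memory cells, and cKO-labelled 1642.6 against control 939.3 in regulatory cells. Smc4, an ATPase subunit of condensin, read cKO-labelled 9375.7 against control 9882.9 in activated cells, cKO-labelled 8219.5 against control 10333.0 in memory cells, and cKO-labelled 18093.6 against control 17883.8 in regulatory cells. Mki67 was 4.18-fold higher on the cKO-labelled array in memory cells and 2.23-fold higher in regulatory cells, and Top2a 4.16-fold and 1.75-fold higher. Smc4 behaved unlike its condensin partners, being the member that was lower in memory cells, by 1.26-fold, and the highest on both regulatory arrays rather than the activated ones. Smc2, the other ATPase of the complex, was 2.70-fold higher in memory cells, Ncapg 3.30-fold and Ncaph 3.50-fold higher, and in regulatory cells the folds were 1.56 for Smc2, 1.29 for Ncapg and 2.23 for Ncaph.

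Of the transcription factors that act on such genes, Mybl2, the gene of B-Myb, read cKO-labelled 563.2 against control 527.7 in activated cells, cKO-labelled 256.1 against control 76.7 in memory cells, and cKO-labelled 121.4 against control 104.1 in regulatory cells. Foxm1 read cKO-labelled 306.4 against control 352.5 in activated cells, cKO-labelled 152.6 against control 140.9 in memory cells, and cKO-labelled 160.8 against control 119.2 in regulatory cells. Mybl2 was 3.34-fold higher on the cKO-labelled array in memory cells and 1.17-fold higher in regulatory cells. On the probe set read here, Foxm1 was 1.08-fold higher in memory cells and 1.35-fold higher in regulatory cells, and 1.15-fold lower in activated cells. A further probe set of Foxm1 read 254.7 on the cKO-labelled and 79.9 on the control memory array, a log2 fold of 1.67. In regulatory cells that probe set had a log2 fold of 0.48.

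**Figure D3:**
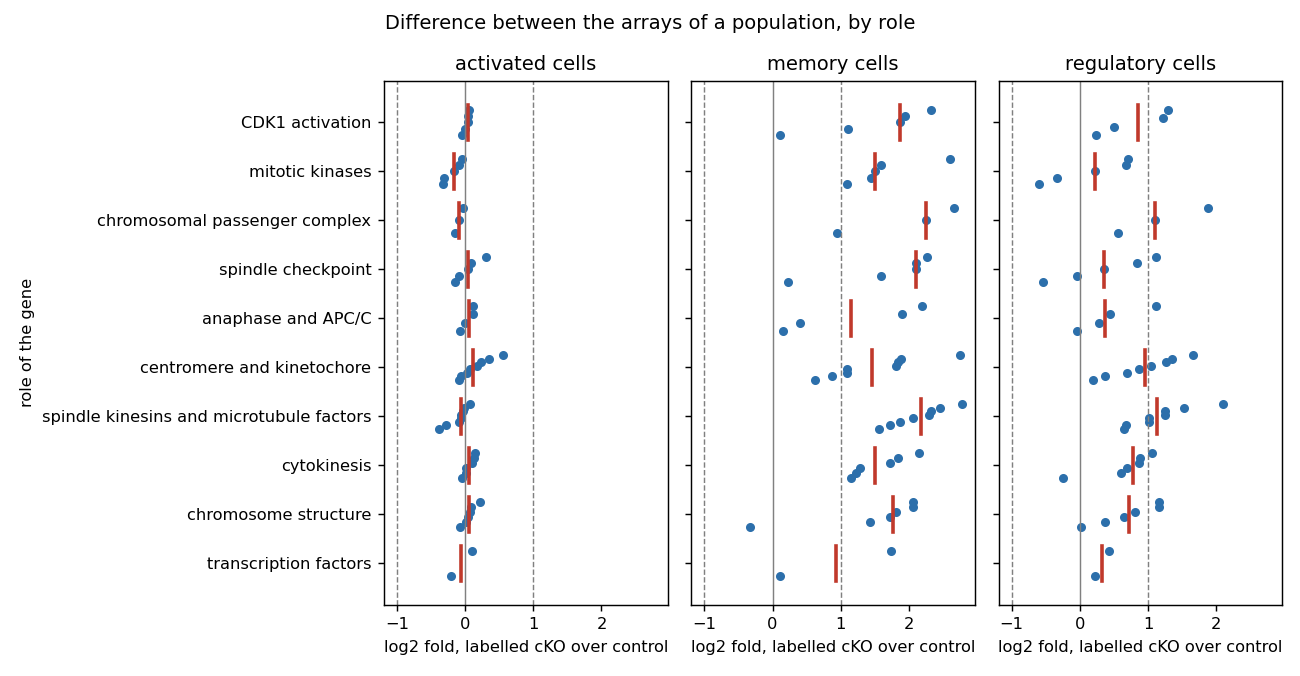
Log2 fold of the cKO-labelled over the control array (horizontal axis) for each measured mitosis gene (blue points) by role (rows), in activated, memory and regulatory cells; red bars are the medians of a role and dashed lines mark 2-fold either way. Points crowd around 0 in activated cells, lie mostly right of the 2-fold line in memory cells, and spread across it in regulatory cells, where mitotic kinases have a median of 0.22 and spindle kinesins and microtubule factors one of 1.14.

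As labelled, the fresh populations shared the direction for 44 of 51 members but not the size. Nearly all members were higher in memory cells, so this count mostly restates that 45 of 51 were higher in regulatory cells. Furin goes against the memory label, and with the memory ratio turned (control over cKO-labelled) 44 of 51 ran opposite ways. All 19 members called in regulatory cells were among the 42 called in memory cells of the 51 measured in both, so the overlap was the whole regulatory set and 45.2% of the memory set, and 0.678% of all genes were called in both (89 of 13118). The fold was larger in memory cells for 48 of 51 members, with Cdc25b, Smc4 and Foxm1 as the exceptions, and the median difference was 0.88 (log2). A further probe set of Foxm1 went against this, with log2 folds of 1.67 in memory cells and 0.48 in regulatory cells. Across the 51 members the log2 folds of memory and regulatory cells had a Pearson r of 0.44 (-0.44 with the memory ratio turned) and a Spearman rho of 0.51, where r was 0.11 over 13118 genes; the pairs of arrays share no array, and genes are not independent replicates. Higher in memory but lower in regulatory cells were Nek2, Ttk, Plk1, Kif20a, Pttg1 and Bub3. This difference between populations was not tested.

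**Figure D4:**
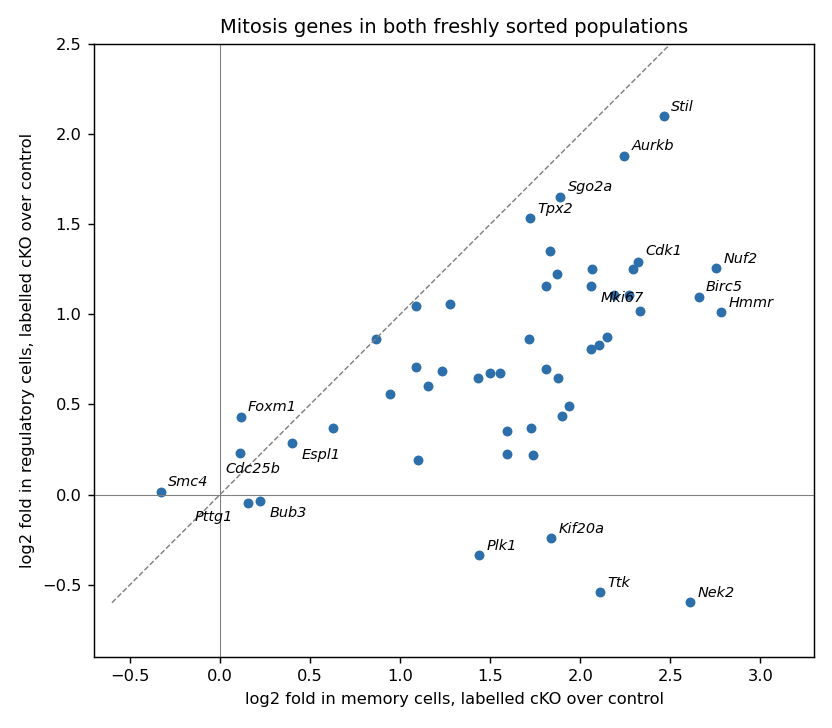
Log2 fold of the cKO-labelled over the control array in memory cells (horizontal axis) and in regulatory cells (vertical axis) for the 51 mitosis genes measured in both (points), with equal folds on the dashed line. All but 3 points lie below the dashed line; Stil and Aurkb stand at the top, and Nek2 and Ttk lie furthest below 0 on the vertical axis.

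Other probe sets of the same genes mostly kept the direction in memory cells and less so in regulatory cells. In memory cells 55 other probe sets of 33 members reached the floor, of which 8, from Bub3, Cdc20, Pttg1, Smc2 and Spc25, had the opposite sign. Genes called in memory cells had 42 such probe sets, of which 38 were higher, 21 at least 2-fold, with a median of 0.99 (log2). In regulatory cells 16 of 56 had the opposite sign, from Anln, Bub3, Cenpf, Hmmr, Incenp, Kif23, Kif2c, Nek2, Nusap1, Spc25, Tpx2 and Ttk, and of the 20 that belong to called genes 14 were higher, 3 at least 2-fold. In activated cells 25 of 58 had the opposite sign. For Hmmr in memory cells the other probe sets had log2 folds of 2.10, at least 1.61, 1.52 and at least 0.88. For Bub1 the other one had at least 0.12. Where "at least" is given, the control array was below the floor.

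Across populations the members stood highest in activated cells. Both activated arrays were above all 4 fresh arrays for 47 of 52 members (90.4%), against 22.5% of all 15721 genes above the floor. An additive model of population plus genotype (limma, Benjamini-Hochberg adjustment over 15721 genes, 2 residual degrees of freedom) called 44 of 52 members higher in activated than in memory cells, against 17.4% of all genes, and 2 lower, Cdc25b and Pttg1, against 27.0% of all genes. The median difference was 2.59 (log2), which is 6.00-fold, with -0.21 for all genes. Ect2 showed the largest one, 4.41 ± 0.54 (log2, SE), with a limma adjusted p of 0.0058. Mki67, at 1.95 ± 0.51, had a limma adjusted p of 0.041, and Birc5, at 1.12 ± 0.67, was not called, with 0.26. Not called either were Ccnb2, Ube2c, Kif22, Racgap1 and Smc4. The arrays of the genotypes serve as repeats here, and population, culture and the technical differences between activated and fresh arrays cannot be told apart.

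Activated over regulatory cells gave 46 of 52 called higher, against 18.2% of all genes, and 2 lower, Cdc25b and Smc4, against 26.7%. The median difference was 3.02 (log2), which is 8.12-fold, with -0.22 for all genes. Kif2c showed the largest one, 4.83 ± 0.57 (log2, SE), with a limma adjusted p of 0.0055, and Smc4 was lower by -0.90 ± 0.16, with a limma adjusted p of 0.014. These calls depended on single arrays. Each fit without 1 array has only 1 residual degree of freedom. The counts also differed with the array left out, and the cause was not tested. Activated over memory kept 31 members called higher without the activated cKO-labelled array, 8 without the activated control, 14 without the memory cKO-labelled, 8 without the memory control and 1 without either regulatory array. Activated over regulatory kept 34 without the activated cKO-labelled array, 8 without the activated control, 29 without either memory array and 0 without either regulatory array.

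Regulatory and memory cells did not differ in a called way: limma called 0 of 52 members and 0 of all genes (0.0%), 4 members and 3360 genes had an unadjusted p under 0.05, and the members' median was -0.52 (log2). That median joins unlike genotypes. Among cKO-labelled arrays 24 of 52 members were at least 2-fold lower in regulatory than in memory cells, against 7.42% of all genes (1089 of 14682), with a median of -0.92. Among control arrays 0 of 51 were, against 5.93% (844 of 14235), with a median of -0.08. The memory cKO-labelled array was the highest of the 4 fresh arrays for 49 of 52 members (94.2%), against 28.3% of all genes. For 40 of 52 (76.9%), against 7.14% of all genes, the regulatory cKO-labelled array came next, above both controls. As a share of the activated signal of the same genotype, the median member stood at 31.1% on the memory cKO-labelled and 10.5% on the memory control array, and at 16.9% on the regulatory cKO-labelled and 10.1% on the regulatory control array.

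The genotype term over the 3 populations was called by limma for 0 of 52 members and 0 of all genes (0.0%). Its p measures how far the genotype difference varies between populations, not between animals. Unadjusted p was under 0.05 for 7 members, all higher, and for 445 of 15721 genes (2.83%). The median was 0.77 (log2), with -0.01 for all genes, and 51 of 52 members were higher. With the memory ratio turned the median was -0.31 and 46 of 52 were lower, and without the memory pair it was 0.35 with 46 of 52 higher. Cenpk had the smallest p among members, at 0.76 ± 0.13 (log2, SE) with a limma adjusted p of 0.82. On the probe set read here it was higher on the cKO-labelled array in each of the 3 populations. Its other probe sets were lower on the cKO-labelled array in activated cells, with log2 folds of -0.26 and -0.25.

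Members that stood little or no higher in activated cells had smaller folds between the memory arrays, with Racgap1, which was called, as the exception. Cdc25b, Pttg1, Racgap1 and Smc4, which were less than 2-fold higher in activated than in regulatory cells, had a median log2 fold of 0.13 between the memory arrays, against 1.82 for the other 48. Across the 52 members the memory fold and the activated over regulatory difference, which share no array, had a Pearson r of 0.69 and a Spearman rho of 0.57, and r was 0.13 over 14200 genes. For the regulatory fold and the activated over memory difference these were 0.27 and 0.29 across 51 members, with an r of 0.05 over 14530 genes. Genes on a common array share its scaling, and these are descriptions across genes. Folds were also set out by CHR words. In memory cells the 28 genes with the word within 50 bases of the start had a median of 1.77 (log2) and 24 of 28 were called, and the 16 measured genes with a matched promoter and none there had 1.85 with 14 of 16 called. In regulatory cells the genes with the word had 0.67 with 7 of 28 called, and those without it 1.03 with 9 of 16 called. These differences were not tested.

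Further genes of division showed smaller median differences. They come from lists of genes by function, chosen with earlier results of these data known. Of 75 other mitosis genes, 59 of 71 measured were higher on the cKO-labelled array in memory cells and 36 were called, with a median of 1.01 (log2), and 51 of 72 were higher in regulatory cells and 11 called, with 0.29. Ska1, a kinetochore protein gene, led them in memory cells, reading 342.5 on the cKO-labelled array against a control of 39.9, below the floor, thus at least 7.20-fold higher. At the other end Mad1l1, the checkpoint partner of MAD2, was 2.11-fold lower in memory cells and, with its cKO-labelled signal of 13.0 below the floor against a control of 171.6, at least 3.60-fold lower in regulatory cells. All 41 measured DNA replication genes were higher in memory cells but 12 were called, with a median of 0.67, and in regulatory cells 34 of 41 were higher and 6 called, with 0.20. The share of all genes called higher was 5.51% in memory cells and 3.05% in regulatory cells. Rrm2, which makes deoxynucleotides as part of ribonucleotide reductase, was 6.35-fold higher in memory cells, and Cdc6, which loads the replicative helicase, was 4.07-fold higher in regulatory cells. Genes of quiescence and CDK inhibition had medians of 0.26 in memory cells and 0.01 in regulatory cells; Cdkn1a, the p21 gene, was 2.53-fold higher and Foxo1 1.65-fold lower in memory cells. limma called 59 of 73 tested other mitosis genes and 33 of 41 replication genes higher in activated than in memory cells, against 17.4% of all genes. Of 16 quiescence genes 9 were called lower, against 27.0% of all genes, and 1 higher.

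**Figure D5:**
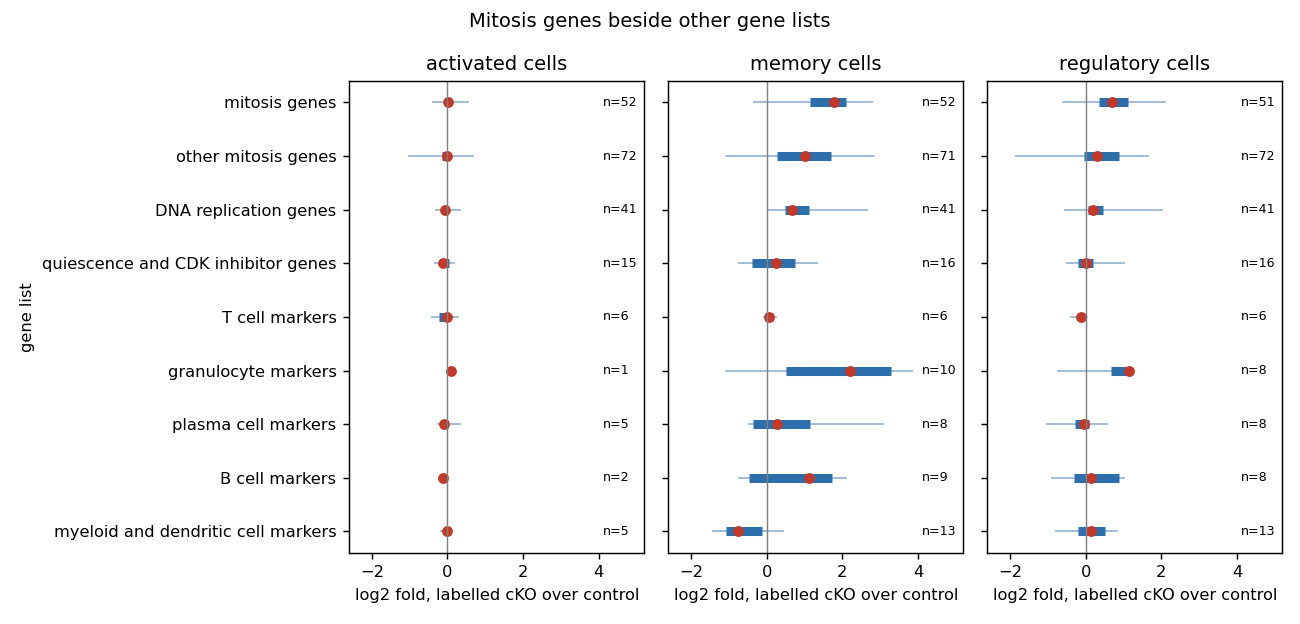
Log2 fold of the cKO-labelled over the control array (horizontal axis) for gene lists (rows) in the 3 populations: red points are medians, thick bars run from the first to the last quartile, thin lines from the lowest to the highest gene, and n is the number of genes measured. The median of mitosis genes is 0.01 in activated, 1.77 in memory and 0.69 in regulatory cells; in memory cells granulocyte markers stand at 2.21, B cell markers at 1.12 and other mitosis genes at 1.01.

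Markers of other cell types differed between the same arrays, and their part in the mitosis gene result was not tested. Granulocyte markers summed to 8471.0 on the cKO-labelled and 2323.8 on the control memory array, with 8 of 10 measured markers higher, and to 3170.0 on the cKO-labelled and 1637.4 on the control regulatory array, with 7 of 8 higher; in activated cells the sums were 188.1 (cKO-labelled) and 120.3 (control). S100a8, abundant in granulocytes, read 2736.0 on the cKO-labelled and 258.6 on the control memory array. Elane and Mpo, enzymes of early granulocyte precursors, read 145.3 and 74.2 on the cKO-labelled and 87.7 and 54.0 on the control memory array. Mmp9 went the other way in memory cells, with a log2 fold of -1.07, and Mpo was the lowest in regulatory cells, at -0.72. Plasma cell markers summed to 21229.0 on the cKO-labelled and 14061.9 on the control memory array, and to 17168.7 on the cKO-labelled and 21987.7 on the control regulatory array. In memory cells 5 of 8 were higher and 3 lower, with a median of 0.28 (log2), from -0.47 (Sdc1) to 3.09 (Jchain). B cell markers were mostly higher too, for 6 of 9 in memory cells and at least 2-fold for 5, with a median of 1.12 (log2); Ms4a1, the CD20 gene, read 1284.9 on the cKO-labelled and 297.4 on the control memory array. Their sum was 14013.2 on the cKO-labelled and 16417.1 on the control memory array, of which Ighm made up 9364.8 (cKO-labelled) and 12987.0 (control). Germinal centre B cell markers, which mark another dividing type, summed to 1602.4 on the cKO-labelled and 1994.6 on the control memory array, with Gcsam and Rgs13 below the floor on both. Myeloid and dendritic cell markers went the other way in memory cells, at 31970.0 (cKO-labelled) and 62616.1 (control). For erythroid markers the sums were 2197.4 (cKO-labelled) and 2862.7 (control) in memory cells and 1840.0 (cKO-labelled) and 2372.0 (control) in regulatory cells. T cell markers summed to 98000.5 on the cKO-labelled and 90076.0 on the control memory array. RNA quality differed as well, with an actin ratio of 1.563 on the cKO-labelled and 1.925 on the control memory array but 1.358 (cKO-labelled) and 1.35 (control) in regulatory cells.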

How the data were processed

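Total RNA of CD4 T cells was extracted with Trizol, labelled with biotin and hybridised to Affymetrix arrays, per the labels' protocols. The authors deposited linear intensities, for which the submitters' processing notes name MAS5; version and settings: not given in the sources used here. On every array the mean after trimming 2% at each end was 500, a scaling that leaves noise in dim signals. Of 45101 probe sets, 64 are controls, 34945 carry 1 gene symbol, 932 several and 9160 none; Entrez identifiers of 34741 matched RefSeq (GRCm38.p6), and 0 symbols changed.

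Each of 18193 genes was read from its brightest probe set. Signals under a floor of 47.6, the pooled 40th percentile, were raised to it before log2, and a fold against such a value is given as "at least". With 1 array per group, 2-fold was the threshold within a population. Population and genotype were fitted together with limma 3.58.1 in R 4.3.3. Tables were made with Python 3.11.15, pandas 2.3.3 and numpy 2.4.6. The fit was also run on simulated data of 15721 genes, with 100 changed by 1 (log2) and 100 by 3 in activated cells. Its activated over memory contrast recovered 0.0% of the former and 77.0% of the latter, so true differences can go uncalled. On the real arrays this contrast called 6976 genes, which loosens the cut on the unadjusted p, so these rates do not carry over. There Bub3 was called at 1.16 (limma adjusted p 0.0060) and Pttg1 at -0.54 (limma adjusted p 0.040). A genotype difference was not simulated. The number of arrays limits the precision.

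Values on all arrays are given for Mki67, Top2a, Cdk1 and the members with the largest and smallest fold of each of 10 roles in memory and regulatory cells; others are named where they complete a role. Members, roles and the 14 other lists were chosen with earlier results of these data known. Alternatives were quantile and cyclic loess normalization, floors at the 20th and 60th percentile, averaging all probe sets of a gene, leaving out probe sets of the _x_at and _s_at kind, population as the only factor, and leaving out each array or population.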

Additional observations from a re-analysis of the deposited data

Results flagged for a closer look

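In all, 5 members had opposite directions in different populations, each past the general spread of all log2 folds there and at least 2-fold in 1 of them; with 1 array a group, these differences were not tested, and the memory signs rest on the doubted label. Stil, a gene of centriole duplication with 1 probe set, had a log2 fold of -0.38 in activated cells, against 2.46 in memory cells and 2.10 in regulatory cells, the last with its control array below the floor. Kif11, the motor that pushes spindle poles apart, had -0.28 in activated cells, against 2.07 in memory cells and 1.25 in regulatory cells, and its other probe sets kept these directions. Plk1, the Polo-like kinase that acts throughout mitosis, had -0.32 in activated cells, 1.44 in memory cells and -0.34 in regulatory cells and has 1 probe set. Nek2, the centrosome kinase, had -0.30 in activated cells, 2.61 in memory cells and -0.60 in regulatory cells, and a further probe set of it had 1.20 in memory cells and 0.89 in regulatory cells. Ttk, the checkpoint kinase, had 2.11 in memory cells and -0.54 in regulatory cells. Its other probe set had 0.13 in memory cells and, with its control array below the floor, at least 1.63 in regulatory cells. Within groups of 1 array no sample can be set apart from others of its kind.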

How the results depend on the processing

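Under the 7 processing alternatives within a population, 34 to 43 members were called in memory cells and 0 in activated cells, and the regulatory median stayed between 0.62 and 0.79 (log2). The memory median of 1.77 became 1.50 with the floor at the 60th percentile, 1.39 when all probe sets of a gene were averaged, 1.59 without probe sets of the _x_at and _s_at kind and 1.96 after quantile normalization. The regulatory count of 19 became 11 of 47 with the floor at the 60th percentile, which measures fewer members, and 12 of 50 with the mean of the probe sets. Of 517 recomputed values of named members 479 moved by less than the general spread of their arrays, 37 by more, and 1 called value changed sign: Cenpa in memory cells, -0.16 with the mean of its probe sets, against 1.10. Values under 2-fold changed sign too with other probe sets, as for Ttk in regulatory cells, 1.02 with that mean, and Nek2 there, 0.89 without the _s_at and _x_at kinds. In the limma contrasts, 1 member was called higher in regulatory over memory cells under the 60th percentile floor and likewise 1 with population as the only factor, and 1 was lower in activated over memory cells with the floor at the 20th percentile; the cause was not tested. Leaving out each array in turn gave 1 to 31 members higher and 1 to 1 lower in activated over memory cells, 0 to 34 higher and 0 to 2 lower in activated over regulatory cells, and 0 for genotype without any population. Turning the memory ratio made the memory median -1.77 and the median genotype difference, 0.77 as labelled, -0.31; it was 0.35 without the memory pair. These alternatives and the one that keeps only members above the floor on both arrays were chosen after seeing the data. The labels give no replicate numbers; the additive model sets the arrays of a population against each other, with population as the block, and called 0 members for genotype. Dim fresh-cell signals, with 1 array a group, a Furin signal against its label in memory cells and a low Foxp3 signal under the regulatory label limit what the differences can carry.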

Other observations

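Smc4 kept its separate pattern on each of its 3 probe sets. Beside the one reported, the second read 12685.6 on the cKO-labelled and 12683.0 on the control regulatory array, against 4857.4 (cKO-labelled) and 6876.5 (control) in memory cells, and the last read 8440.6 on the cKO-labelled and 7156.5 on the control regulatory array, against 1616.2 (cKO-labelled) and 1998.0 (control) in memory cells. Its transcript thus stood higher in regulatory than in memory cells in both genotypes, and in memory cells it was lower on the cKO-labelled array on all 3.

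In activated cells the other mitosis gene furthest from the rest was Kifc1, a minus-end directed spindle motor, at 511.0 on the cKO-labelled and 1030.8 on the control array, 2.02-fold lower; it was the lowest of the 72 measured there and was 1.62-fold higher in memory cells. Cdkn1a, which restrains CDKs, was the quiescence gene that stood high in activated cells, at 8979.1 on the cKO-labelled and 8879.1 on the control array, beside 165.2 (cKO-labelled) and 65.4 (control) in memory cells.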
